A study of Mus musculus with 8 samples.

Results

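The genes around Gab2 on mouse chromosome 7 were described by their position, in whole bone marrow (BM) of mice that carry 2, 1 or 0 functional Gab2 alleles. Members were taken from the deposited count table as the genes whose start in GENCODE M21 (GRCm38) lies on chromosome 7 between 77081586 and 117081586, which is 20 Mb to either side of the start of Gab2 at 97081586. Gab2 itself and 10 other genes of the region, among them Idh2, Ctsc, the beta globin genes Hbb-bs and Hbb-bt and genes of ribosomal and complex I proteins, were left out by the rule. This gave 224 of the 13305 genes in the table, of which 200 are protein coding, 79 lie below Gab2 in coordinate and 145 above it. The segment has 1138 annotated genes in GENCODE M21, and 259 of these are olfactory receptor genes, of which 0 are in the table.

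All 8 mice were C57BL/6N and shared the genotype Mx1-Cre, Dnmt3a+/- and Flt3ITD/ITD, the genotype of the acute myeloid leukemia (AML) model. They differed in Gab2, with 3 Gab2+/+ (AML WT), 2 Gab2+/- (AML HET) and 3 Gab2-/- (AML KO) mice, and each gave 1 RNA-seq library of whole BM. The Gab2 knockout is a constitutive allele in which a neomycin cassette stands in place of several exons, Cre was active in this model without an inducing injection, and the age of the sequenced mice and the strain in which the Gab2 allele was made are not given in the sources used here.

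Gab2 is a docking protein that is recruited to receptor tyrosine kinases and passes their signal on to other proteins. A targeted allele is passed on together with the chromosome around it, so mice sorted by their genotype at a locus are also sorted, in part, by the alleles of its neighbours, until crossovers separate them. The segment around Gab2 holds the mouse Trim5, Trim12, Trim30 and Trim34 genes, an array of closely related copies that encode TRIM proteins, ubiquitin ligases known for their part in the defence against viruses, and genes and pseudogenes of the very large inducible GTPases, a family known for its response to interferon. Such arrays differ between mouse strains in their sequence and number of copies.

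The upstream sequences of 5 TRIM genes are shown because these neighbours had very different levels in the same mice, as described further on. Each is the 250 bases before a RefSeq start on GRCm38.p6, read 5′ to 3′ on the minus strand, on which all 5 genes lie. For Trim5 and Trim12a, the bases after this start were not found near the start of a GENCODE M21 transcript of the gene. Capitals mark a match to GAAA, 2 bases of any kind and GAAA again, searched on both strands (TTTC, 2 bases and TTTC on the other), the core of the element through which interferon acts on genes. The windows are chr7:104288107-104288356 for Trim5, chr7:104315496-104315745 for Trim12a, chr7:104353350-104353599 for Trim12c, chr7:104507850-104508099 for Trim30d and chr7:104465194-104465443 for Trim30a.
Trim5: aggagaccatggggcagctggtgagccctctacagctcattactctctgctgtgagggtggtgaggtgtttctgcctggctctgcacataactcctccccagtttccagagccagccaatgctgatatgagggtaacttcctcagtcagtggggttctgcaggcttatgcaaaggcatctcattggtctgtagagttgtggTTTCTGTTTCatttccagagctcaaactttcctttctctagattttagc
Trim12a: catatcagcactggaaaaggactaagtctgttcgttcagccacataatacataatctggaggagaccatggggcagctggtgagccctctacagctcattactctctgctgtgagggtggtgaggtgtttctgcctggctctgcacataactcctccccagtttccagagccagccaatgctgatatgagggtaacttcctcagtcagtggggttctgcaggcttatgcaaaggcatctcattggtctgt
Trim12c: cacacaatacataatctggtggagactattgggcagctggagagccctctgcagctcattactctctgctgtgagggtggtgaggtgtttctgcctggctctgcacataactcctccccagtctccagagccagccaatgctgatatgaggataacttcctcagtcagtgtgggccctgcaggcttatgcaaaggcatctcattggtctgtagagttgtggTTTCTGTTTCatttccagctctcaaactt
Trim30d: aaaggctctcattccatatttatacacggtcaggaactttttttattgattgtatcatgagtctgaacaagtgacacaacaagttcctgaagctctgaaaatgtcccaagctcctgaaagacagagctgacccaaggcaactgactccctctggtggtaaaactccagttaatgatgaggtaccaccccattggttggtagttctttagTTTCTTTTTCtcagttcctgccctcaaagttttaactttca
Trim30a: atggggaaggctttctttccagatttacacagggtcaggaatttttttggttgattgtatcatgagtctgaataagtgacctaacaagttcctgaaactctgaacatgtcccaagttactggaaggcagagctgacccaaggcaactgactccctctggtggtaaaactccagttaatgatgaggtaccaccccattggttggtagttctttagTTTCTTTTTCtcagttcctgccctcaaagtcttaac
The windows of Trim5 and Trim12a share a run of 191 identical bases, and that of Trim12c shares a run of 71 bases with each of them. Those of Trim30a and Trim30d share a run of 118. The motif has 1 match in Trim5, Trim12c, Trim30d and Trim30a and 0 in Trim12a, where the shared run is shifted within the window. The window of another RefSeq start of Trim30a, chr7:104446126-104446375, is not shown and has 0 matches to the motif. Among all 32851 RefSeq windows of this length, 2.98% hold it, against 3.93% of the 229 windows of members (173 of the 224 members have an entry). The STAT motif TTCNNNGAA was found in 7.02% of all windows and in 6.11% of those of members. It was in none of the 5 windows shown, so the motifs do not overlap here.

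The libraries held 28009258 to 39266815 counts on genes. Gab2 was at 93.9, 68.5 and 61.6 CPM (counts scaled to the size of the library) in the AML WT mice, 55.8 and 50.8 in the AML HET mice and 35.0, 47.2 and 40.2 in the AML KO mice, so the 3 groups do not overlap and follow the labels. It was lower in AML KO BM by the test (log2 fold change against AML WT −0.87, standard error 0.18, adjusted p = 0.0420 in edgeR's quasi-likelihood test), and this call was lost without 6 of the 8 mice, one at a time (adjusted p of 0.0783 to 0.159). The remaining counts are summed over the gene and do not show which exons they come from. Of the marker genes of blood cells, 18 of 19 erythroid genes, 13 of 15 of megakaryocytes and platelets, 7 of 13 of neutrophils and 2 of 9 of progenitors were higher than in AML WT BM, while 0 of 9 monocyte, 0 of 7 B cell and 0 of 10 T and NK cell genes passed in edgeR (4, 0 and 3 at an unadjusted p under 0.05). In whole BM, a change in the number of cells of a type and a change in RNA per cell cannot be told apart.

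When AML KO BM was set against AML WT BM, 13 of the 224 genes (5.80%) had an adjusted p under 0.05, against 2.09% of all genes. Of these, 9 were higher in AML KO (4.02%, against 1.77% of all genes) and 4 lower (1.79%, against 0.323%). In the rest of chromosome 7, 16 of 785 genes (2.04%) passed, and on the other chromosomes 247 of 12246 (2.02%). The groups of 3 AML KO and 3 AML WT mice had no overlap at 59 members (26.3%), as at 22.1% of all genes. The median absolute log2 fold change was 0.26 for the members and 0.23 for all genes, while the value exceeded by 10% of the genes was 1.17 for the members and 0.71 for all genes. The number of members that passed depended on single mice: it was 4 without AML WT replicate 2, 5 without AML KO replicate 3, 7 without AML WT replicate 1 or AML KO replicate 1, 8 without AML WT replicate 3, but rose to 19 when AML KO replicate 2 was left out.

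**Figure D1:**
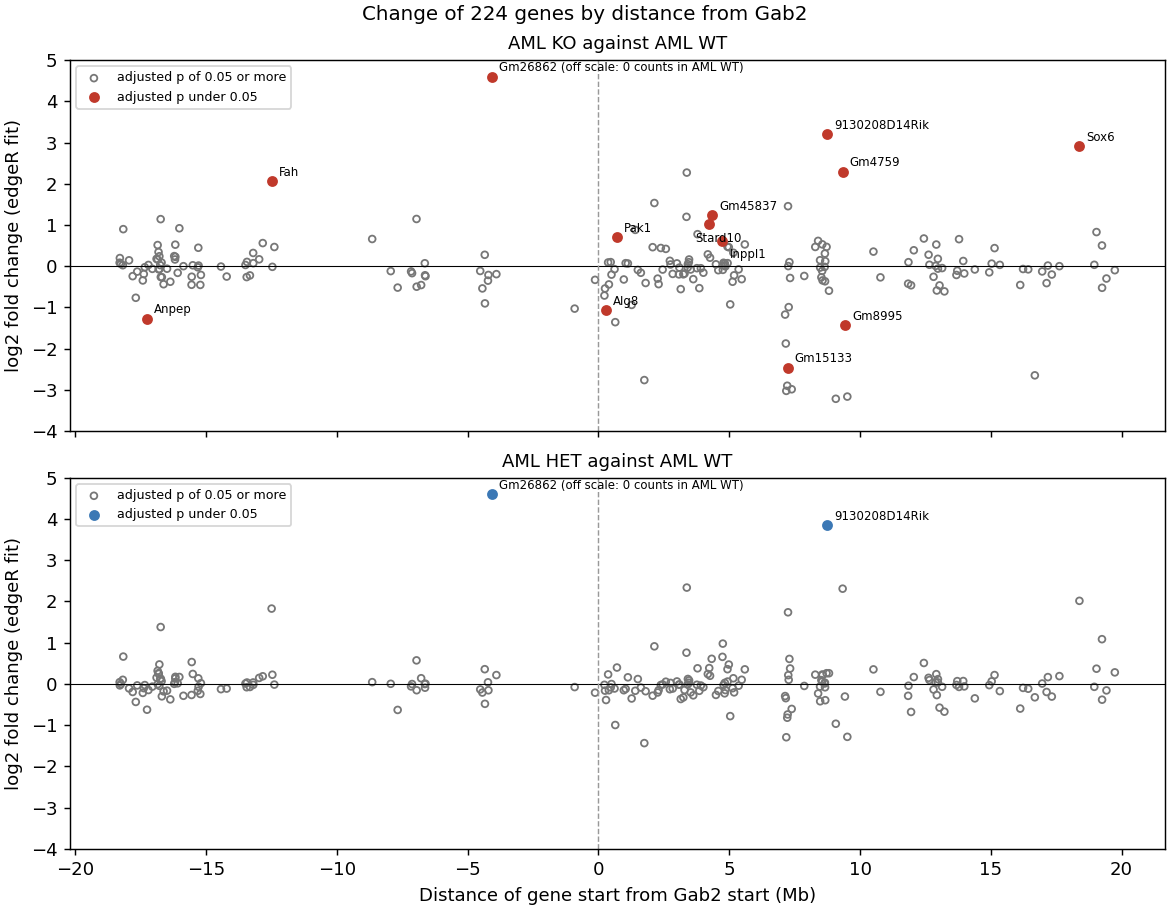
The log2 fold change of each of the 224 genes (y axis) is plotted against the distance of its start from that of Gab2 in Mb (x axis, dashed line at Gab2), for AML KO (upper panel, n = 3) and AML HET (lower panel, n = 2) against AML WT (n = 3). Filled points passed an adjusted p of 0.05, and Gm26862, with 0 counts in each AML WT mouse, is drawn at the upper edge. Of the 224 genes, 145 lie above Gab2, and so do most of those with large changes. A group of falls lies between 7.1 and 9.6 Mb above it.

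By position, 10 of the 13 genes lie between 5 Mb below and 10 Mb above Gab2, a range with 111 members (9.01% of which passed). The remaining 113 members gave 3 (2.65%). These limits were chosen after the values were seen, so the contrast between them was not tested. In bins of 5 Mb, the share without overlap between AML KO and AML WT was highest from 5 to 10 Mb above Gab2, with 16 of 38 genes (42.1%) and a median absolute log2 fold change of 0.47. For all genes these values were 22.1% and 0.23. In the next bin, from 10 to 15 Mb above, 6 of 25 genes (24.0%) did not overlap, near the share of all genes. There 0 passed the edgeR test, with 3 of 25 at an unadjusted p under 0.05. From 15 to 20 Mb above, 1 of 19 genes passed, with 5 of 19 at an unadjusted p under 0.05, and 26.3% did not overlap. From 10 to 5 Mb below Gab2, 0 of 11 genes passed, with 3 of 11 at an unadjusted p under 0.05. Over all genes, 2.09% passed and 17.7% had an unadjusted p under 0.05.

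The genes next to Gab2 were mixed. Alg8 starts 0.290 Mb above Gab2 (97371606 to 97392185) and encodes a glucosyltransferase that builds the sugar chain for protein N-glycosylation. It was at 46.9, 44.8 and 51.0 CPM in AML WT, 36.1 and 36.4 in AML HET and 26.0, 19.9 and 21.8 in AML KO mice. The 3 genotypes are separate and ordered by the number of functional Gab2 alleles, with AML KO replicate 2 the lowest of all. Alg8 fell in AML KO BM (log2 fold change −1.07, standard error 0.14, adjusted p = 0.00687), and it passed in each of the 8 fits without 1 mouse. Of the other 4 genes that follow Gab2 most closely, Usp35, Kctd21, Kctd14 and Ints4, none passed in the edgeR test (log2 fold changes of −0.71, −0.54, 0.09 and −0.44). Of the 5 members that precede Gab2 most closely, Prcp, Gm26862, Gm15501, Tenm4 and Nars2, only Gm26862 passed. Nars2, the nearest of all at 0.130 Mb, did not pass (log2 fold change −0.33, standard error 0.20, adjusted p = 0.375).

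Gm26862, a long noncoding RNA gene 4.07 Mb below Gab2 (93006982 to 93104789), had 0 counts in each of the 3 AML WT mice. It had 104 and 149 counts in the AML HET mice and 162, 128 and 161 in the AML KO mice. Every mouse with a Gab2 knockout allele thus had reads on this gene, at 3.65 and 4.75 CPM in AML HET and 5.30, 4.66 and 4.74 CPM in AML KO. A count of 0 allows up to 3 counts, or 0.0967 CPM in the smallest AML WT library, and against this limit the AML KO mean was at least 50.7-fold higher, and that of AML HET at least 43.4-fold higher. Both differences passed (adjusted p = 8.82e-04 and 0.00270 in edgeR). AML KO and AML HET did not differ by the test (log2 fold change 0.22, standard error 0.28, adjusted p = 0.914). Fam181b and Gm9934 lie inside its span, and Prcp, in which 2.80% of the 50-base words of Gm26862 are also found, had a log2 fold change of −0.21.

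The pseudogene 9130208D14Rik, 8.74 Mb above Gab2 (105824223 to 105831515), was at 0.74, 0.32 and 0.49 CPM in AML WT, 9.47 and 5.67 in AML HET and 3.96, 3.82 and 6.63 in AML KO mice. The AML HET and AML KO mice overlap, and all of them were above AML WT. It rose in AML KO (log2 fold change 3.20, standard error 0.40, adjusted p = 0.00640) and in AML HET (log2 fold change 3.85, standard error 0.42, adjusted p = 0.0215). Its AML HET call rests on both AML HET mice and on AML WT replicates 2 and 3, without any of which Gm26862 was the only member that passed in AML HET. Gm4759, another pseudogene of the GTPase family, 9.34 Mb above Gab2, was at 7.45, 1.96 and 2.14 CPM in AML WT, 23.7 and 14.9 in AML HET and 13.05, 21.9 and 22.3 in AML KO mice. It showed the same order of groups, with AML WT replicate 1 above the other AML WT mice (log2 fold change 2.30, adjusted p = 0.0486). It passed without AML WT replicate 1 (log2 fold change 3.21, adjusted p = 0.00829) and in none of the other 7 fits that left out a mouse (adjusted p of up to 0.162). 9130208D14Rik shares 44.9% of its 50-base words with other annotated transcripts, so part of its reads could belong to another copy, while Gm4759 shares 2.51%.

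**Figure D2:**
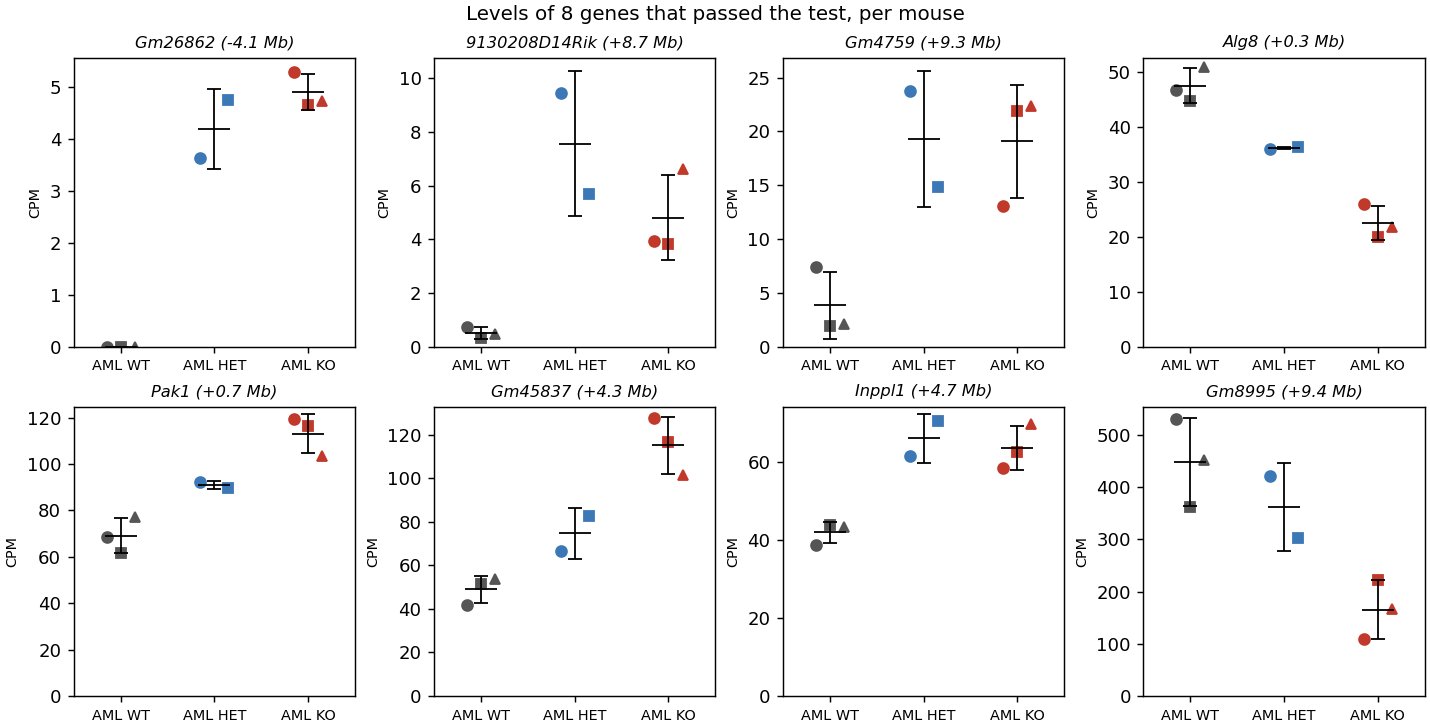
Levels in CPM (y axes, each starting at 0) of 8 genes that passed the test between AML KO and AML WT, with 1 symbol per mouse (circle, square and triangle for replicates 1, 2 and 3) and the mean and SD in black. Gm26862, 9130208D14Rik, Gm4759 and Inppl1 have AML HET mice near the AML KO mice, while Alg8, Pak1 and Gm45837 have AML HET mice between the other groups.

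Further genes above Gab2 rose in AML KO BM. Pak1, a kinase that acts downstream of Rac and Cdc42 and starts 0.707 Mb above Gab2, was at 68.6, 61.8 and 77.0 CPM in AML WT, 92.2 and 89.7 in AML HET and 119, 116 and 104 in AML KO mice. The groups are separate and the AML HET mice lie between the others (log2 fold change of AML KO 0.71, standard error 0.12, adjusted p = 0.0194). Inppl1 encodes SHIP2, a phosphatase of phosphoinositides, and was at 38.9, 43.9 and 43.3 CPM in AML WT, 61.7 and 70.6 in AML HET and 58.6, 62.6 and 69.9 in AML KO mice. Here AML HET and AML KO overlap and both are above AML WT, with log2 fold changes of 0.65 (adjusted p = 0.505) and 0.60 (adjusted p = 0.0427). Stard10, a lipid transfer protein, was at 15.5, 23.2 and 22.5 CPM in AML WT, 23.1 and 30.0 in AML HET and 52.8, 33.9 and 37.7 in AML KO mice. Its AML HET mice overlap with AML WT, and AML KO replicate 1 was the highest (log2 fold change 1.02, adjusted p = 0.0479).

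The locus counted under the identifier ENSMUSG00000030653, named Gm45837 in GENCODE M21, spans Pde2a and Arap1 and shares 95.6% of its 50-base words with Pde2a, which breaks down cyclic nucleotides, so the reads cannot be assigned to one of them. It was at 41.9, 51.3 and 53.9 CPM in AML WT, 66.5 and 82.9 in AML HET and 128, 117 and 101 in AML KO mice. All 3 groups are separate (log2 fold change 1.23, standard error 0.15, adjusted p = 0.00640), and it passed without any 1 of the mice. The calls of the other 3 genes were less firm. Pak1 was lost without AML WT replicate 1 (adjusted p = 0.0506), AML WT replicate 2 (0.0998), AML KO replicate 1 (0.0620) or AML KO replicate 3 (0.0514). Stard10 passed only without AML KO replicate 2 (0.0404), and Inppl1 in none of these 8 fits (0.0647 to 0.170).

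The largest falls were in the TRIM and GTPase arrays between 7.1 and 9.6 Mb above Gab2, and there the AML KO mice were not alike. Trim5 (104263386 to 104288094) had 601, 268 and 415 counts in AML WT, 167 and 123 in AML HET and 0, 121 and 4 in AML KO mice. Trim12a (104299894 to 104315466) had 1126, 884 and 1240 counts in AML WT, 585 and 464 in AML HET and 2, 346 and 3 in AML KO mice. In both, AML KO replicates 1 and 3 were at or near 0, while AML KO replicate 2, at 36.7% and 40.4% of the AML WT mean, was near the AML HET mice, which were at 48.9% and 32.7% for Trim5 and at 65.7% and 47.4% for Trim12a.

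The pattern was found in 3 more genes. Trim30d had 818, 483 and 1313 counts in AML WT, 664 and 307 in AML HET and 15, 230 and 28 in AML KO mice. The GTPase gene Gvin1, 9.07 Mb above Gab2, had 428, 263 and 373 counts in AML WT, 189 and 116 in AML HET and 0, 92 and 0 in AML KO mice. Gm1966, a GTPase pseudogene at 9.52 Mb with the most reads of these genes, had 18583, 8986 and 8020 counts in AML WT, 4334 and 3697 in AML HET and 11, 2983 and 53 in AML KO mice. AML KO replicate 2 was at 33.2% of the AML WT mean for Trim30d and Gvin1 and at 33.0% for Gm1966. The AML KO mice lie below all AML WT mice in each of these 5 genes, and the AML HET mice do in 4 of them, with Trim30d as the exception. Closer to Gab2, at 1.75 Mb, the growth factor gene Wnt11 had 20, 52 and 84 counts in AML WT, 21 and 13 in AML HET and 0, 18 and 2 in AML KO mice, with AML KO replicate 2 again near the AML HET mice and overlapping with AML WT.

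With AML KO replicate 2 included, the spread within AML KO was wide and none of these 6 genes passed in edgeR: the log2 fold changes of Trim5, Trim12a, Trim30d, Gvin1, Gm1966 and Wnt11 were −3.02, −2.90, −2.99, −3.22, −3.16 and −2.76, with standard errors of 0.90 to 1.42 and adjusted p of 0.161 to 0.285. With the same mice, limma-voom called 4 of them, Trim5 (adjusted p = 0.0460), Trim12a (0.0344), Gvin1 (0.0351) and Gm1966 (0.0386), but not Trim30d (0.0522) or Wnt11 (0.165). DESeq2 called none of the 6, with adjusted p of 0.0976 to 0.389 for 5 of them and no adjusted p for Trim12a. Without AML KO replicate 2 all 6 passed in edgeR, with adjusted p of 0.00235 for Trim5, 5.21e-05 for Trim12a, 0.00816 for Trim30d, 0.00127 for Gvin1, 8.73e-04 for Gm1966 and 0.0407 for Wnt11. These 6 genes were named because an AML KO mouse was under 10% of the AML WT mean. AML KO replicate 2 was not under it, so the fit without that mouse uses the values by which the genes were picked and is no separate test. Trim34a, which also passed without that mouse (0.0184), had an adjusted p of 0.0580 with all mice in edgeR (log2 fold change −1.88) and was called with all mice by DESeq2 (2.50e-04) and limma-voom (0.0424). It was at 13.1, 10.7 and 20.3 CPM in AML WT, 13.9 and 9.21 in AML HET and 1.96, 6.66 and 3.42 in AML KO mice. Its AML HET mice overlap with AML WT, and AML KO replicate 2 was again the highest of the AML KO mice. Counting genes with at least 1 AML KO mouse under 10% of the AML WT mean or above 10 times that mean (and at least 1 CPM in either group), 9 members did so (4.02%), against 0.827% of all genes. They are the 6 genes above, Gm26862, 9130208D14Rik and Sox6.

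**Figure D3:**
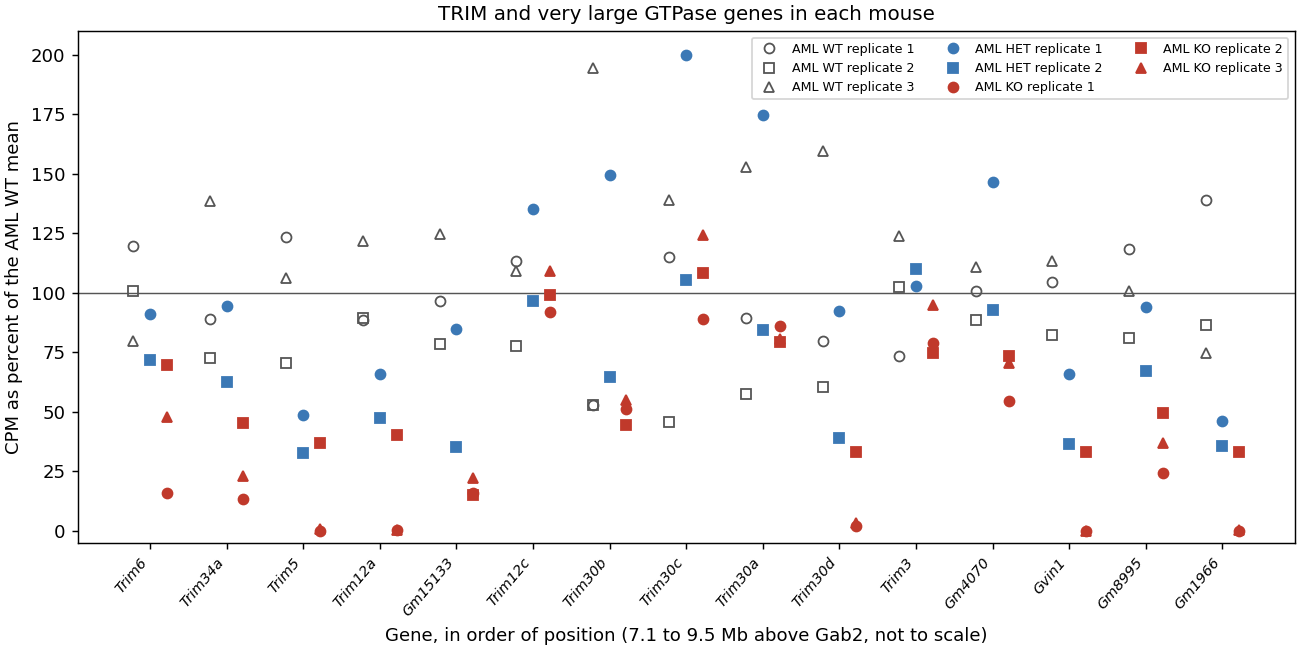
The level of 15 genes of the TRIM and GTPase arrays in each mouse as percent of the AML WT mean (y axis, line at 100%), in their order along the chromosome (x axis, not to scale). Trim34b, 9130208D14Rik and Gm4759 lie in the same stretch, had positive log2 fold changes in AML KO and are not drawn. Trim5, Trim12a, Trim30d, Gvin1 and Gm1966 are near 0 in AML KO replicates 1 and 3 and between 33.0% and 40.4% in AML KO replicate 2, while Trim12c, Trim30c and Trim30a, which lie between them, overlap with AML WT.

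Several neighbouring copies had AML KO mice near AML WT, though Trim6 did not. Trim12c, which starts 7.26 Mb above Gab2, beyond Trim12a and Trim34b, was at 37.0, 25.4 and 35.6 CPM in AML WT, 44.1 and 31.5 in AML HET and 30.1, 32.4 and 35.7 in AML KO mice. The groups overlap (log2 fold change of AML KO 0.00, standard error 0.18, adjusted p = 0.996). Trim30a, between Trim12c and Trim30d, differed by −0.29 on the log2 scale (standard error 0.34) and Trim30c by 0.10, each with a sign that changed without single mice. For Trim34b, a low copy at 0.16 to 1.30 CPM, it was 1.46 (adjusted p = 0.230). Trim6, before Trim34a in the array, was at 2.43, 2.05 and 1.62 CPM in AML WT and 0.33, 1.42 and 0.97 in AML KO mice (log2 fold change −1.17, adjusted p = 0.246). All its AML KO mice were below the AML WT mice, with AML KO replicate 2 the highest of the AML KO mice as for Trim5. Trim30b had a log2 fold change of −0.99 (adjusted p = 0.334), and its AML KO mice, at 3.76, 3.28 and 4.04 CPM, overlap with AML WT at 3.88, 3.89 and 14.3. Gm4070 had a log2 fold change of −0.60 (adjusted p = 0.230) although 98.3% of its 50-base words are also found in Gvin1, so the split of reads between these copies is uncertain. Gvin1 in turn shares 99.15% of its words with other genes (98.3% with Gm4070), so its low counts in AML KO carry the same limit. Of Trim5, 38.1% of the words are shared with other genes (24.7% with Trim12c), of Trim34a 41.3%, of Gm1966 17.5%, of Trim30d 8.29% and of Trim12a 4.46%, so most of the sequence of Trim12a, Trim30d and Gm1966 is their own at this word length.

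In these arrays, Gm8995 and Gm15133 fell past the threshold. Gm8995, a GTPase pseudogene between Gvin1 and Gm1966, was at 530, 363 and 452 CPM in AML WT, 422 and 302 in AML HET and 110, 221 and 166 in AML KO mice. AML KO mice were all below the others, with AML KO replicate 2 the highest of them (log2 fold change −1.44, standard error 0.26, adjusted p = 0.0226). The call was lost without AML WT replicate 1 (0.0644), AML WT replicate 2 (0.0675) or AML KO replicate 3 (0.102). Gm15133, annotated as an antisense RNA that overlaps the start of Trim12a on the other strand, was at 1.40, 1.14 and 1.81 CPM in AML WT, 1.23 and 0.51 in AML HET and 0.23, 0.22 and 0.32 in AML KO mice. Here AML KO replicate 2 was as low as the other AML KO mice (log2 fold change −2.47, standard error 0.44, adjusted p = 0.0233), in contrast to its level of Trim12a. The call of Gm15133 held only without AML HET replicate 1 or 2, and without any of the other 6 mice the adjusted p was 0.0511 to 0.0844. Whether the counting used the strand is not given in the sources used here, so reads of Gm15133 and Trim12a cannot be told apart where they overlap.

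TRIM genes outside the segment and a list of interferon-induced genes, which holds no very large GTPase gene, give levels beside which the falls stand. Of 32 TRIM genes elsewhere in the genome, 1 was higher in AML KO than in AML WT BM (Trim10, log2 fold change 3.60, adjusted p = 0.0213), 0 were lower, and the median log2 fold change was −0.12. Of 42 interferon-induced genes, 0 passed in the edgeR test and 7 had an unadjusted p under 0.05, where 17.7% of all genes had such a p. The median log2 fold change of the 42 was −0.68 in AML KO and 0.23 in AML HET. Their summed level was 1659, 1493 and 3760 CPM in AML WT, 3359 and 1875 in AML HET and 1755, 1807 and 1578 in AML KO mice, with AML WT replicate 3 and AML HET replicate 1 above the rest. AML KO replicate 2, the highest AML KO mouse for Trim5, Trim12a, Trim30d, Gvin1 and Gm1966, was at 1807 CPM in this sum, beside 1755 and 1578. These AML KO sums were close to each other, and all lie within the range of the AML WT mice, 1493 to 3760 CPM. The part of interferon-induced expression in the falls was not tested.

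Far from Gab2, 3 genes also passed. Sox6, a transcription factor of erythroid maturation 18.4 Mb above Gab2, was at 0.32, 0.76 and 0.49 CPM in AML WT, 1.12 and 3.06 in AML HET and 5.56, 3.06 and 3.06 in AML KO mice. AML KO replicate 1 was highest and the AML HET mice were above AML WT (log2 fold change of AML KO 2.91, standard error 0.49, adjusted p = 0.0174). The sum of 19 erythroid marker genes was 207 to 296 CPM in AML WT, 457 to 1392 in AML HET and 895 to 3115 in AML KO mice, and none of the 19 was at 0 in any mouse. AML KO replicate 1 was highest there too. Their part in the level of Sox6 was not tested, nor was the part of position. The Sox6 call was lost without AML WT replicate 1 (0.0589), AML WT replicate 2 (0.0675) or AML KO replicate 3 (0.0505).

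Anpep, which encodes CD13, a peptidase on the surface of myeloid cells, lies 17.3 Mb below Gab2. It was at 21.2, 26.6 and 31.1 CPM in AML WT, 20.6 and 13.5 in AML HET and 9.65, 13.4 and 9.55 in AML KO mice. AML KO mice were below all others (log2 fold change −1.28, standard error 0.23, adjusted p = 0.0213), and the call was lost without AML WT replicate 2 (0.0883), AML WT replicate 3 (0.0510), AML KO replicate 1 (0.0742) or AML KO replicate 3 (0.104). Of 9 monocyte marker genes 0 passed in edgeR, with 4 at an unadjusted p under 0.05, where 17.7% of all genes had such a p. The sum of the 9 was 14736 to 15974 CPM in AML WT and 10110 to 16025 in AML KO mice, with 1 AML KO mouse above all AML WT mice and none of the 9 at 0 in any mouse. Lyz2 makes up most of this sum, at 9987 to 11316 CPM in AML WT mice. The 9 log2 fold changes were all below 0, from −1.10 (Fcgr1) to −0.07 (Ly6c2), with a median of −0.33. The median log2 ratio of the 9 genes to the AML WT mean (0.5 CPM added to both) was −0.47, −0.05 and −0.53 in AML KO replicates 1, 2 and 3, and AML KO replicate 2 was the highest of the AML KO mice here as for Anpep. Their part in the level of Anpep was not tested. Fah, an enzyme of tyrosine breakdown 12.5 Mb below Gab2, was at 1.65, 0.85 and 1.41 CPM in AML WT, 4.49 and 4.81 in AML HET and 6.51, 5.31 and 4.54 in AML KO mice. AML HET mice were near AML KO and apart from AML WT (log2 fold changes of 1.83, adjusted p = 0.428, and 2.05, adjusted p = 0.00988). Fah was lost without AML WT replicate 2 (0.0550).

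Between AML HET and AML WT BM, 2 members passed, Gm26862 and 9130208D14Rik, against 0.0225% of all genes. At an unadjusted p under 0.05 there were 16 members (7.14%), where 2.47% of all genes had such a p. AML HET and AML WT had no overlap at 48 members (21.4%, against 18.1% of all genes). DESeq2 also called Fah (adjusted p = 1.12e-04), Gm4759 (0.00290) and Inppl1 (0.00923) between AML HET and AML WT. Between AML KO and AML HET BM, 0 members passed in the edgeR test (0.0% of all genes passed), with 17 members (7.59%) and 5.86% of all genes at an unadjusted p under 0.05. DESeq2 called 2 members there, Alg8 (adjusted p = 0.0113) and Gm8995 (0.0263). Without AML KO replicate 2, edgeR called 4: Trim12a (2.82e-04), Gm1966 (0.00540), Gvin1 (0.00811) and Trim5 (0.0331). These 4 were named for AML KO mice far below AML WT, and the mouse left out was not among those, so this fit is no separate test. All 3 comparisons share mice, so their counts are not independent of each other.

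Single mice were also set against the AML WT mice, counting genes that lay outside all 3 AML WT mice and at least 2-fold from their mean, with at least 1 CPM. AML KO replicate 1 did so at 42 members (18.8%), against 11.9% of all genes. AML KO replicate 2 did so at 27 (12.1%, against 5.25%), AML KO replicate 3 at 25 (11.2%, against 5.26%), AML HET replicate 1 at 10 (4.46%, against 1.38%) and AML HET replicate 2 at 17 (7.59%, against 2.38%). AML KO replicate 1 also stood furthest from AML WT across all genes. In the bin from 5 to 10 Mb above Gab2 the shares were 42.1%, 31.6% and 28.9% in AML KO replicates 1, 2 and 3 and 13.2% and 21.1% in AML HET replicates 1 and 2. In the next bin, from 10 to 15 Mb, they were 12.0%, 0% and 0% in the AML KO mice and 0% and 4.0% in the AML HET mice. From 15 to 20 Mb above Gab2, with 19 genes, they were 15.8% in each AML KO mouse and 10.5% in each AML HET mouse. These are again above the shares of all genes. From 10 to 5 Mb below Gab2 they were 27.3%, 0% and 0% in the AML KO mice and 0% in both AML HET mice. From 15 to 10 Mb below, with 13 genes, each AML KO and AML HET mouse had 7.69%.

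**Figure D4:**
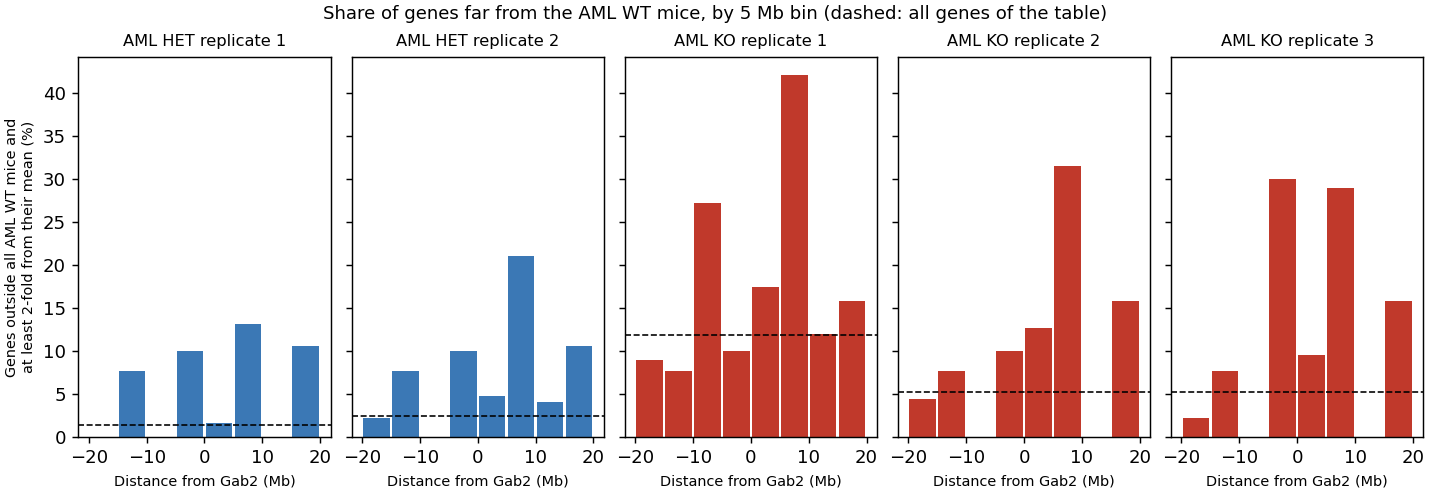
For each AML HET and AML KO mouse, the percent of genes (y axis) that lay outside all 3 AML WT mice and at least 2-fold from their mean, in bins of 5 Mb by distance from Gab2 (x axis, 10 to 63 genes per bin), with the dashed line at the share of all 13305 genes. The bin from 5 to 10 Mb above Gab2 is the highest in AML KO replicates 1 and 2 and in both AML HET mice (42.1%, 31.6%, 13.2% and 21.1%), and in AML KO replicate 3 it is second to the bin from 5 to 0 Mb below, which holds only 10 genes.

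The mice were grouped by their Gab2 allele, and which alleles they carry at the neighbouring genes is not given in the sources used here. An effect of position next to the knockout allele and an effect of the loss of Gab2 cannot be told apart for any of these genes from the counts alone, and neither was tested.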

How the data were processed

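The authors sequenced total RNA of whole BM from 8 mice and deposited raw counts per gene and mouse. The submitters' processing notes name Trimmomatic 0.36, STAR 2.5.2b and the build mm10. The counter, its annotation, read length and strand setting are not given in the sources used here. Multi-mapped reads may have been dropped or shared between copies, which bears on the TRIM and GTPase arrays.

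Positions came from GENCODE M21, where 13266 of 13305 identifiers were found, and upstream sequences from RefSeq (GRCm38.p6). Distances are between gene starts. Members and gene lists were chosen with earlier results of these data known. The deposited counts were tested in R 4.3.3 with edgeR 4.0.16 (TMM, robust quasi-likelihood test, all 8 mice, genotype as the only term), with Benjamini-Hochberg adjustment over all 13305 genes and a threshold of 0.05. filterByExpr removed 0 genes. Standard errors were derived from the F statistic. CPM use TMM library sizes. On simulated counts for AML KO against AML WT over 13305 genes, 93 of 100 genes changed 4-fold, 63 of 100 changed 2-fold and 10 of 13105 unchanged genes were called. A count of 0 allows up to 3 counts, for counting error only.

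Genes named are members that passed in a comparison, the 5 nearest to Gab2 on each side, TRIM and very large GTPase genes (with Gm1966 and Gm4070), the 5 largest changes without overlap, members with an AML KO mouse under 10% or over 10 times the AML WT mean, and the lists' largest changes. Not every such gene is printed. The 50-base words are those of each gene's longest transcript.

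Alternatives were DESeq2 1.42.0, limma-voom (limma 3.58.1), upper-quartile normalization, normalization without chromosome 7, 2 filters on low counts, a fit of only the AML WT and AML KO mice, the replicate number as a block, each mouse left out in turn, a 10 Mb limit and protein-coding genes alone. Python 3.11.15 (pandas 2.3.3, matplotlib 3.10.9) drew the figures.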

Additional observations from a re-analysis of the deposited data

How the results depend on the processing

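The 13 members called between AML KO and AML WT were all among those called with DESeq2 (19), limma-voom (18), upper-quartile normalization (13) and normalization without chromosome 7 (13). Of the 13, 11 were called with at least 10 counts in every mouse (without Gm15133 and Gm26862), 10 with a mean of at least 1 CPM (without Gm15133, Gm4759 and Stard10) and 10 with AML WT and AML KO mice alone (without Gm4759, Inppl1 and Stard10). Protein-coding members alone gave 8. Where edgeR called 4 members lower, DESeq2 called 7 and limma-voom 9. Between AML HET and AML WT the 2 calls became 5 with DESeq2, which added Fah, Gm4759 and Inppl1, and 1 with limma-voom. They became 1 with at least 10 counts in every mouse, which drops Gm26862, and 0 among protein-coding members in edgeR. Between AML KO and AML HET, DESeq2 made 2 calls where edgeR made 0. The median absolute log2 fold change was 0.32 within 10 Mb of Gab2. With AML WT and AML KO mice alone, Gab2 had a log2 fold change of −0.87 with an adjusted p of 0.0811. Over all genes, 278 calls became 730 with DESeq2 and 19 with the block. The cause was not tested for any of these.

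In the labels, replicate numbers name mice, and no pairing is stated. The deviations of same-numbered mice from their group means correlated at −0.51 to 0.29, with 5 of the 7 such pairs below 0. Deviations sum to 0 within each group, so these pairs are not independent and cannot decide whether mice were paired. With the replicate number as a block, 2 members were called between AML KO and AML WT (Gm26862 and 9130208D14Rik), 2 of them higher, 0 lower and 1 within 5 Mb of Gab2, 0 were called between AML HET and AML WT, and Gab2 was at −0.85 (adjusted p = 0.165).

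Leaving out 1 mouse at a time gave 4 to 19 members called between AML KO and AML WT, beside 40 to 370 of all genes. Of the members, 3 to 9 were higher, 1 to 10 lower, and 3 to 7 within 5 Mb, where all mice gave 6. The same fits called 1 to 3 members between AML HET and AML WT and 0 to 4 between AML KO and AML HET. The median absolute log2 fold change was 0.20 to 0.33, and that of Gab2 −0.99 to −0.68. The sign changed for 5 genes that were not called, whose log2 fold changes lay between −0.35 and 0.0140 (Gm15501), −0.0575 and 0.37 (Kctd14), −0.15 and 0.0927 (Trim12c), −0.24 and 0.41 (Trim30c) and −0.56 and 0.16 (Trim30a). For single genes named in the text, 516 values over all alternatives kept their direction and side of the threshold, 59 lost the call, 14 gained it and 9 changed sign.

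Depth limits genes with few counts, such as Trim34b at 0.16 to 1.30 CPM, by counting error, while how far it limits the other genes was not tested.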
